A study of Mus musculus with 24 samples.

Results

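Interferon-stimulated genes, together with the receptors and transcription factors that control them, were followed in endothelial and stromal cells of mouse bone marrow. The genes were given as a list of 35 symbols, without a rule on their measured values, and all 35 were found among the 23879 gene symbols of every library. Type I interferons are antiviral cytokines that bind a receptor made of Ifnar1 and Ifnar2. The receptor activates a complex with Stat2 and Irf9 that enters the nucleus and switches on genes whose products block viral entry, translation and replication. In the marrow, interferon is known to push quiescent stem cells into division, and the vessels and stroma around those cells carry the same receptor. Interferon gamma works through its own receptor and drives an overlapping set of genes that includes Irf1 and the guanylate-binding proteins.

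The 24 libraries were made from polyA RNA of C57BL/6J mice, and the titles place them in 8 groups of 3. Bone marrow endothelial cells (BMEC) and bone marrow stroma (BMS) each appear in a first culture series, in a co-culture series alone (CC-Alone), in that series with hematopoietic stem and progenitor cells (CC+HSPC), and in vivo. These settings are called culture, alone, with HSPC and in vivo. All 18 titles of cultured cells carry the name Akt1, a growth factor kinase, without saying what was done to it, and the 6 in vivo titles lack it. Growth in culture and whatever the name Akt1 stands for therefore cannot be told apart where culture is set against in vivo. No other allele, treatment or age is given, although headers of the in vivo endothelial files read Young, and pooling of animals is not stated. C57BL/6J mice are known to carry defective Mx1 and Mx2 genes. Whether the 3 libraries in each group stem from separate animals or cultures is not stated, so the p-values measure only how far these libraries differ from one another, and that may be technical.

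Levels are FPKM (fragments mapped per kilobase of gene, scaled for the fragments of the library), and library totals ran from 1421447 to 1808592 FPKM, with 12447 to 13961 genes at 1 FPKM or more. Of the cultured libraries, 3 carried Xist at 1006 FPKM or more (endothelium in culture 2 and 3, stroma in culture 3), against at most 2.35 FPKM in the other 21. The summed level of 6 endothelial markers was 10869 to 11286 FPKM in endothelium alone and 0 in stroma alone, and that of 6 stromal markers was 52150 to 58062 FPKM in stroma alone. Stromal markers in endothelium summed to 263 to 3075 FPKM in culture, 1599 to 1894 in vivo, 576 to 677 alone and 260 to 271.5 with HSPC. In stroma in culture they summed to 3406 to 9382 FPKM. The endothelial markers summed to 5044 to 13058 FPKM in endothelium in culture. What part these markers' cells had in the levels was not tested. In vivo stroma held 18689 to 23294 FPKM of 5 granulocyte and erythroid markers, and in vivo endothelium 336 to 636 FPKM, while all 5 were at 0 in culture and alone. In bulk RNA, fewer cells of a type and less RNA per cell cannot be told apart.

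The DNA element read by the complex with Stat2 and Irf9, the ISRE, has a core of GAAANNGAAA, and the GAS element of interferon gamma targets is TTCNNNGAA. Both were searched on both strands in the 250 bases before each gene's start, with sequences from RefSeq on GRCm38.p6 matched by symbol. The expression files are on mm9 and hold no coordinates. A window was found for 30 of the 35 genes, and none for Mx1, Mx2, Oas2, Usp18 or Dhx58. The ISRE core was present in 11 of these 30 genes (36.7%), against 3.46% of 27025 genes with a window. These were Ifit1, Ifit3, Isg15, Rsad2, Oas1a, Oas3, Stat2, Bst2, Gbp2, Gbp3 and Ifitm2. The GAS letters were present in 8 (26.7%, against 8.13% of all genes), namely Ifit2, Isg20, Oas1a, Irf1, Irf8, Bst2, Eif2ak2 and Ifnar2, and the 2 motifs overlapped in 1 window. A match is a description of the letters and not a site of binding.

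The 150 bases before the start are shown for 6 genes that the results below turn on, read 5′ to 3′ on the gene's own strand, with matches to the ISRE core of either strand in capitals. Isg15 (chr4:156200819-156200968, minus strand) holds 3 overlapping matches, Ifit1 (chr19:34640739-34640888, plus strand) 2 on the opposite strand, and Gbp2 (chr3:142620513-142620662, plus strand) 1. Oas1a (chr5:120907526-120907675, minus strand) and Bst2 (chr8:71537473-71537622, minus strand) hold 2 overlapping matches each. Isg20 (chr7:78913274-78913423, plus strand, the first of 3 listed starts) holds none and is shown because its stromal level moved against most of the others.
Isg15: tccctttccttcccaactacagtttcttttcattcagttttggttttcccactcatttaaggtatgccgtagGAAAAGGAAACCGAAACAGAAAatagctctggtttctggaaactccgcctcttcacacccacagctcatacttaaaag
Ifit1: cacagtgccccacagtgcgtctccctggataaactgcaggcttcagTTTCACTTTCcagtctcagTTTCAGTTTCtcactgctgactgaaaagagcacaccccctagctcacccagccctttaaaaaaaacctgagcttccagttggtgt
Gbp2: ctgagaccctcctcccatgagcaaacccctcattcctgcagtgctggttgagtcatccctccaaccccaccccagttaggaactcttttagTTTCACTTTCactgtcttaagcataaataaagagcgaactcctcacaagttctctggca
Oas1a: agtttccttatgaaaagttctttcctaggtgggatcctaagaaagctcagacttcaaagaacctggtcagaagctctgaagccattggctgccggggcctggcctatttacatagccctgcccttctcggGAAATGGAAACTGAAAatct
Bst2: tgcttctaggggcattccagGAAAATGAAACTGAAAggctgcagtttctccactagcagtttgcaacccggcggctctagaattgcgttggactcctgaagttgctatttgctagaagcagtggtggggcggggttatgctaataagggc
Isg20: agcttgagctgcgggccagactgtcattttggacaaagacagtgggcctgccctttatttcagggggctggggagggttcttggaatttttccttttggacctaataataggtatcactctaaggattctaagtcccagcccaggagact

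**Figure D1:**
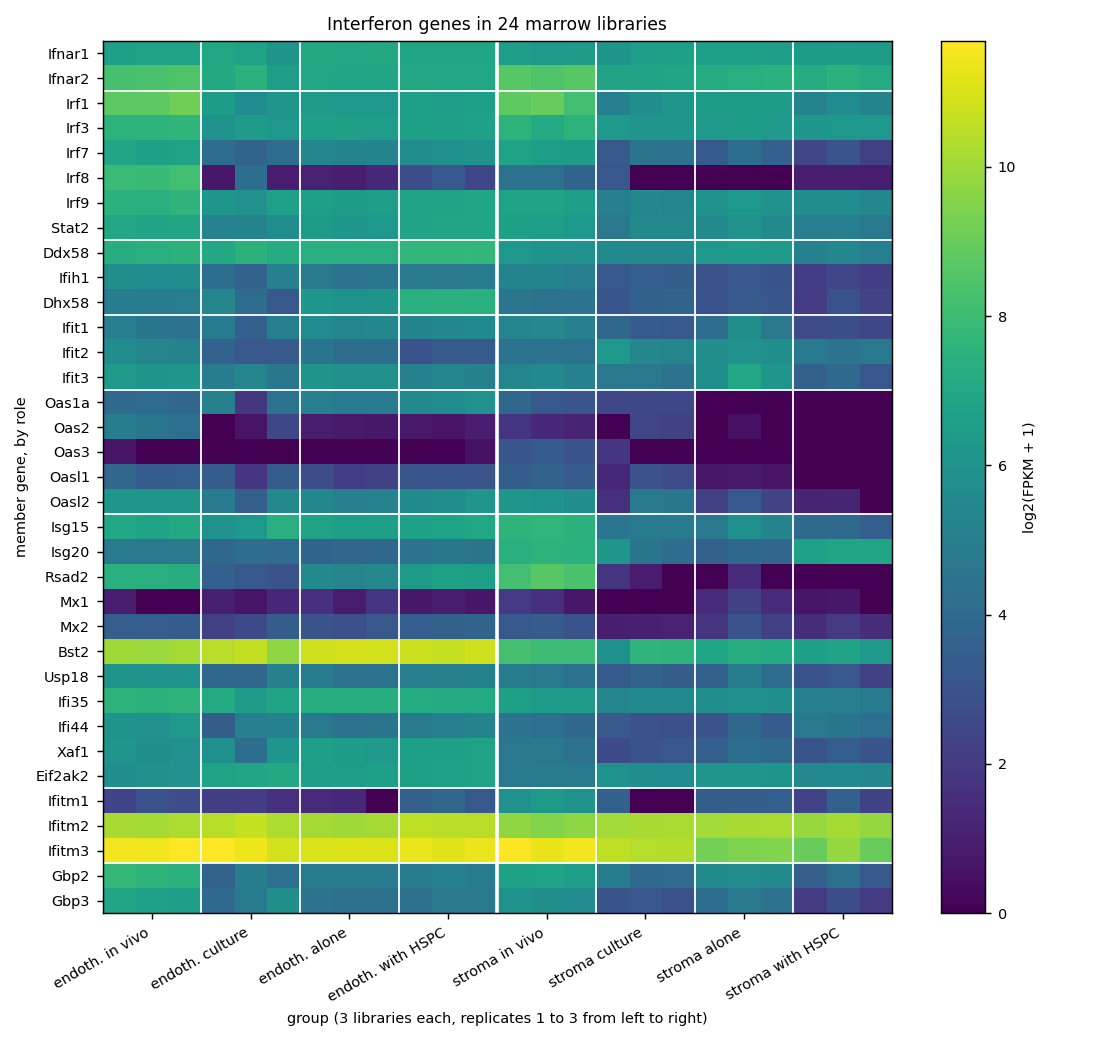
Level of each of the 35 genes in each of the 24 libraries, as log2(FPKM + 1), with libraries in columns by group and genes in rows by role. The in vivo groups are the brightest columns for most regulators, and stroma with HSPC is the darkest group, with Oas1a, Oas2, Oas3, Oasl1 and Rsad2 listed at 0 in it.

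Over all 35 genes the mean log2(FPKM + 1) of a library was highest in the in vivo groups, at 6.12 to 6.25 in endothelium and 5.67 to 5.94 in stroma. It was 5.57 to 5.68 in endothelium with HSPC, 5.21 to 5.38 in endothelium alone and 4.82 to 5.11 in endothelium in culture. Stroma ran lower, with 4.15 to 4.20 in culture, 4.14 to 4.62 alone and 3.51 to 3.91 with HSPC. Neighbours whose ranges overlapped were in vivo stroma and endothelium with HSPC, and stroma alone and in culture. Ifitm3, a membrane protein that traps viruses in endosomes, reached 2828, 2785 and 3278 FPKM in the 3 libraries of in vivo endothelium, and Oas3, an enzyme that makes the RNase L activator, stayed at or below 0.55 FPKM in all 12 endothelial libraries.

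The first question was how the genes differed between cells taken from the marrow and cells in culture. Most of them stood higher in vivo. In stroma 27 of the 35 rose, 3 fell and 5 did not pass the test. This and all later tests used limma on log2(FPKM + 1) with Benjamini-Hochberg adjustment over all tested genes and a threshold of 0.05, and values after ± are standard errors (SE) of differences between groups of 3 libraries. The spread of a gene was estimated jointly from the 4 groups of a fit, so each SE and p-value also reflects the groups outside the comparison. Over all 14904 genes tested, 24% were higher and 31.4% lower in stroma in vivo. The 6 stromal markers summed to 137467 to 162558 FPKM in stroma in vivo and 3406 to 9382 in stroma in culture, so the stromal groups differed in these markers too, and their part in the counts was not tested. In endothelium 17 of the 35 rose and 1 fell, against 23.6% and 29.8% of all genes. The median log2 difference of the 35 was 1.41 in stroma and 0.77 in endothelium, with −0.15 and −0.09 over all genes. Genes that rose in both cell types are named here, and the share of all tested genes that did so is not given. They were Ifnar2, Irf1, Irf3, Irf7, Irf8, Irf9, Stat2, Ifih1, Ifit3, Rsad2, Usp18, Ifi35, Ifi44, Gbp2 and Gbp3.

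Of the receptor chains, Ifnar2 rose and Ifnar1 did not pass. Ifnar2 was at 310.1, 326 and 359 FPKM in endothelium in vivo and at 136, 179 and 93.6 in culture, a log2 difference of 1.33 ± 0.19 (SE, adjusted p = 0.00024). In stroma it was at 399.9, 359 and 399 FPKM in vivo and 113, 111 and 118 in culture, a log2 difference of 1.75 ± 0.19 (SE, adjusted p = 3.2e-05). The in vivo libraries lay above the cultured ones without overlap in both cell types. Ifnar1 overlapped between the settings, with log2 differences of 0.09 ± 0.22 (SE) in endothelium and 0.05 ± 0.22 (SE) in stroma.

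All 6 transcription factors of the list, Irf1, Irf3, Irf7, Irf8, Irf9 and Stat2, were higher in vivo in both cell types. Irf1, an early factor induced by interferon gamma, was at 432, 430.3 and 561 FPKM in endothelium in vivo against 85.6, 50.1 and 68.2 in culture, a log2 difference of 2.81 ± 0.31 (SE, adjusted p = 4.4e-05). In stroma Irf1 was at 439, 508 and 286 FPKM in vivo and 32.0, 51.4 and 70.9 in culture, a log2 difference of 3.00 ± 0.31 (SE, adjusted p = 2.2e-05). Irf7, which amplifies the production of type I interferon, was at 119, 100.5 and 106 FPKM against 16.98, 12.4 and 16.4 in endothelium, a log2 difference of 2.76 ± 0.29 (SE, adjusted p = 2.9e-05). Every in vivo library lay above every cultured one for these 2 genes in both cell types. Irf8, a factor best known from myeloid cells, was at 248, 238 and 287 FPKM in endothelium in vivo and at 0.680, 18.0 and 0.880 in culture, where replicate 2 stood apart. Its log2 difference was 6.04 ± 0.99 (SE), adjusted p = 0.00057. In stroma Irf8 was at 20.5, 19.6 and 12.4 FPKM in vivo and at 7.94, 0 and 0 in culture, and its difference of 3.13 ± 0.99 did not pass without any 1 of stroma in culture 2 or 3 or stroma in vivo 1 or 2 (adjusted p = 0.0584 to 0.0752). Pan-hematopoietic markers (Ptprc, Spi1, Cd53, Laptm5, Coro1a and Vav1) summed to 38.9 to 56.7 FPKM in endothelium in vivo and 35.1 to 73.9 in stroma in vivo, against 1.71 to 16.7 and 20.2 to 40.2 in culture. In stroma in culture 5 of these markers were at 0 and the sum was Cd53 alone. In endothelium in culture Ptprc, Spi1 and Vav1 were at 0, while none of the markers was at 0 throughout either in vivo group. Their part in the Irf8 levels was not tested. The rises of Irf3, Irf9 and Stat2 lay between 1.20 and 1.56 on the log2 scale in both cell types.

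**Figure D2:**
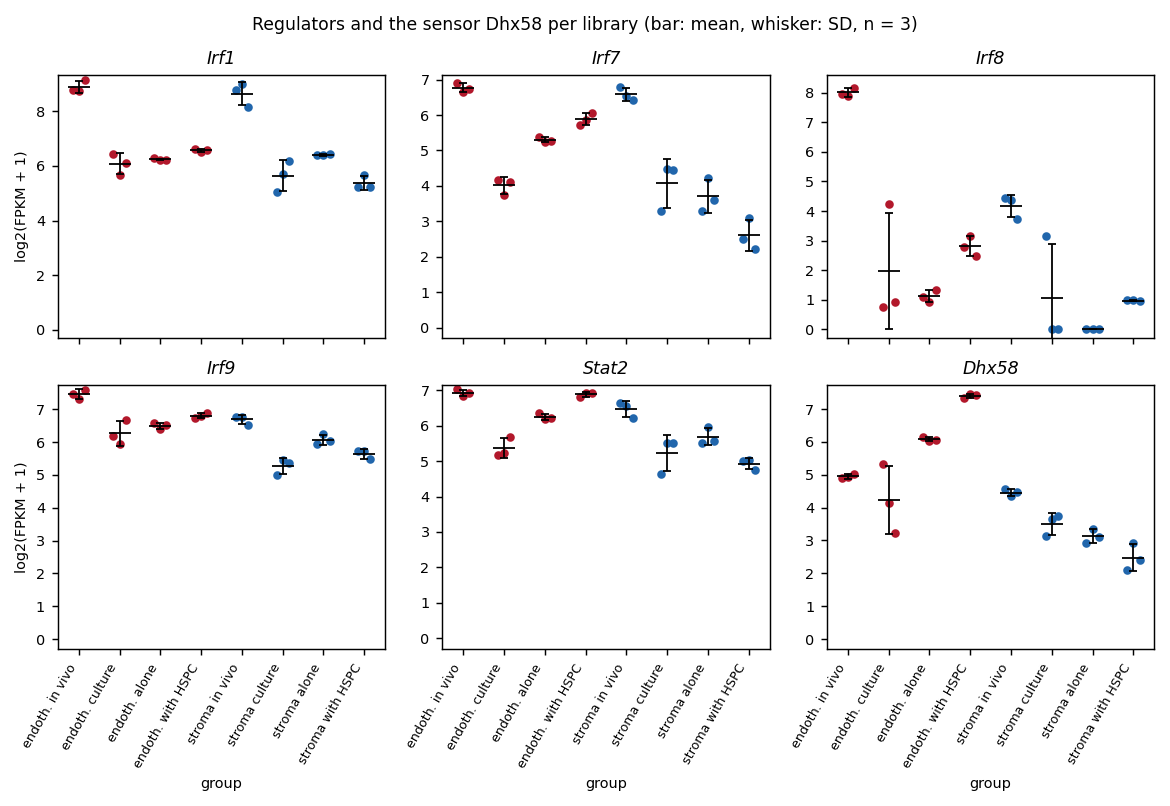
Per-library levels, as log2(FPKM + 1), of 5 transcription factors and the sensor Dhx58 in the 8 groups, with the mean as a bar and the SD as a whisker (n = 3). Within each cell type, in vivo libraries lie above those of the first culture series for Irf1, Irf7, Irf8, Irf9 and Stat2, and Dhx58 is highest in endothelium with HSPC, at 161 to 174 FPKM.

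Of the RNA sensors, Ifih1 (MDA5), which recognises long double-stranded RNA, rose in both cell types, from 17.5, 11.8 and 32.9 to 53.4, 51.0 and 52.9 FPKM in endothelium and from 8.19, 10.2 and 9.77 to 37.7, 37.2 and 31.2 in stroma. The log2 differences were 1.42 ± 0.29 and 1.81 ± 0.29. Ddx58 (RIG-I) was at 155, 158 and 181 FPKM in endothelium in vivo and 133, 183 and 150.4 in culture, which overlapped, and rose in stroma by 0.50 ± 0.14 on the log2 scale. That stromal call was lost without stroma in vivo 1 (0.40, adjusted p = 0.0506). Dhx58 (LGP2), a regulator of the other two, did not pass in either cell type, with log2 differences of 0.72 ± 0.41 and 0.95 ± 0.41.

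Among the effectors, Rsad2 (viperin), which makes a chain-terminating nucleotide, had the largest stromal difference of the 35. It was at 291, 396 and 327 FPKM in stroma in vivo and at 2.52, 0.920 and 0 in culture, a log2 difference of 7.47 ± 0.37 (SE, adjusted p = 8.8e-08). In endothelium Rsad2 was at 173, 159 and 154 FPKM in vivo and 10.9, 8.29 and 6.90 in culture, a log2 difference of 4.09 ± 0.37 (SE, adjusted p = 1.1e-05). Isg15, a ubiquitin-like modifier whose promoter is printed above, was at 194, 204 and 181 FPKM in stroma in vivo and 23.1, 27.2 and 27.0 in culture, a log2 difference of 2.86 ± 0.27 (SE, adjusted p = 1.2e-05). In endothelium Isg15 overlapped between the settings, at 126, 114 and 134 FPKM in vivo and 63.8, 73.4 and 159 in culture. Usp18, the protease that removes Isg15 and damps the receptor, rose by 1.69 ± 0.30 in endothelium and 1.19 ± 0.30 in stroma on the log2 scale. The guanylate-binding GTPases rose in both cell types. Gbp2 was at 219.5, 195 and 174 FPKM in endothelium in vivo and 12.03, 30.3 and 18.0 in culture, and at 101, 108 and 90.3 and 29.3, 15.1 and 15.9 in stroma, with log2 differences of 3.31 ± 0.31 and 2.32 ± 0.31. Gbp3 rose by 1.86 ± 0.36 in endothelium and 2.73 ± 0.36 in stroma. Members of the Gbp, Ifit, Oas and Ifitm families have near copies, and reads may have been split between them.

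Genes that rose in stroma and did not pass in endothelium are named next, without the share of all tested genes that did so. They were Ddx58, Ifit1, Isg15, Isg20, Mx1, Mx2, Oas3, Oasl2, Bst2, Xaf1, Ifitm1 and Ifitm3. Granulocyte and erythroid markers summed to 18689 to 23294 FPKM in stroma in vivo, 336 to 636 in endothelium in vivo and 0 in both cultures. The part of these markers' cells in the rises was not tested. Isg20, an RNA exonuclease, was at 172, 190.2 and 173 FPKM in stroma in vivo and 71.2, 22.5 and 17.2 in culture, a log2 difference of 2.52 ± 0.40 (SE, adjusted p = 0.00041). Ifitm1 was at 59.9, 81.7 and 64.0 FPKM in stroma in vivo and 11.6, 0 and 0 in culture, a log2 difference of 4.89 ± 0.79 (SE, adjusted p = 0.0005). Ifit1, which binds viral RNA caps, rose from 13.8, 9.62 and 8.98 to 38.7, 43.7 and 33.1 FPKM. Mx1 was listed at 0 in all 3 stromal cultures and at 2.85, 2.02 and 0.7 FPKM in vivo. Mx2 rose by 2.11 ± 0.28, Oas3 by 2.61 ± 0.41, Xaf1 (a pro-apoptotic partner of XIAP) by 1.64 ± 0.41 and Ifitm3 by 1.04 ± 0.25 on the log2 scale. Bst2 (tetherin), which holds budding virions at the membrane, rose by 1.07 ± 0.41, but by 0.48 (adjusted p = 0.0845) without stroma in culture 1, and it also did not pass without any 1 of the 3 stromal in vivo libraries (adjusted p = 0.0904 to 0.119). The stromal calls of Oasl2, Ifi44 and Ifitm2 were lost without some single library as well, at adjusted p of 0.0546 to 0.0610 for Oasl2 (stroma in vivo 1 or 2), 0.0605 to 0.0781 for Ifi44 (stroma in culture 2 or 3, in vivo 1 or 2) and 0.0542 to 0.0870 for Ifitm2 (stroma in culture 2 or 3, in vivo 2). Scaling ended the stromal calls of Mx1 (quantile normalization, adjusted p = 0.134) and Ifitm2 (0.154 with quantile normalization, 0.222 with trimmed-mean scaling). Without stroma in culture 1 the difference of Oasl2 was 1.32 in place of 2.33. Without endothelium in culture 1 the endothelial difference of Ifi44 was 0.99 in place of 1.53.

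A few genes went the other way. Eif2ak2 (PKR), the kinase that stops translation on sensing double-stranded RNA, fell in both cell types in vivo. It was at 51.6, 57.5 and 59.7 FPKM in endothelium in vivo and 110.1, 120.0 and 132 in culture, a log2 difference of −1.09 ± 0.12 (SE, adjusted p = 4.4e-05). In stroma it was at 25.8, 27.3 and 27.2 FPKM in vivo and 62.7, 51.4 and 49.3 in culture, a log2 difference of −0.99 ± 0.12 (SE, adjusted p = 6.7e-05). Neither pair of groups overlapped. Ifit2, a pro-apoptotic IFIT protein, rose in endothelium and fell in stroma. It went from 11.9, 7.94 and 8.65 to 49.5, 38.5 and 36.6 FPKM in endothelium and from 75.2, 41.9 and 39.1 to 20.6, 20.5 and 20.3 in stroma, with log2 differences of 2.03 ± 0.25 and −1.24 ± 0.25. Ifitm2 fell by 0.49 on the log2 scale in stroma. Oas2, a second oligoadenylate synthetase, rose in endothelium from 0, 0.510 and 4.81 to 29.8, 23.2 and 18.3 FPKM and stayed low in stroma, at 2.39, 1.54 and 1.19 FPKM in vivo and 0, 4.44 and 3.86 in culture. Oas1a and Oasl1 did not pass in either cell type.

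**Figure D3:**
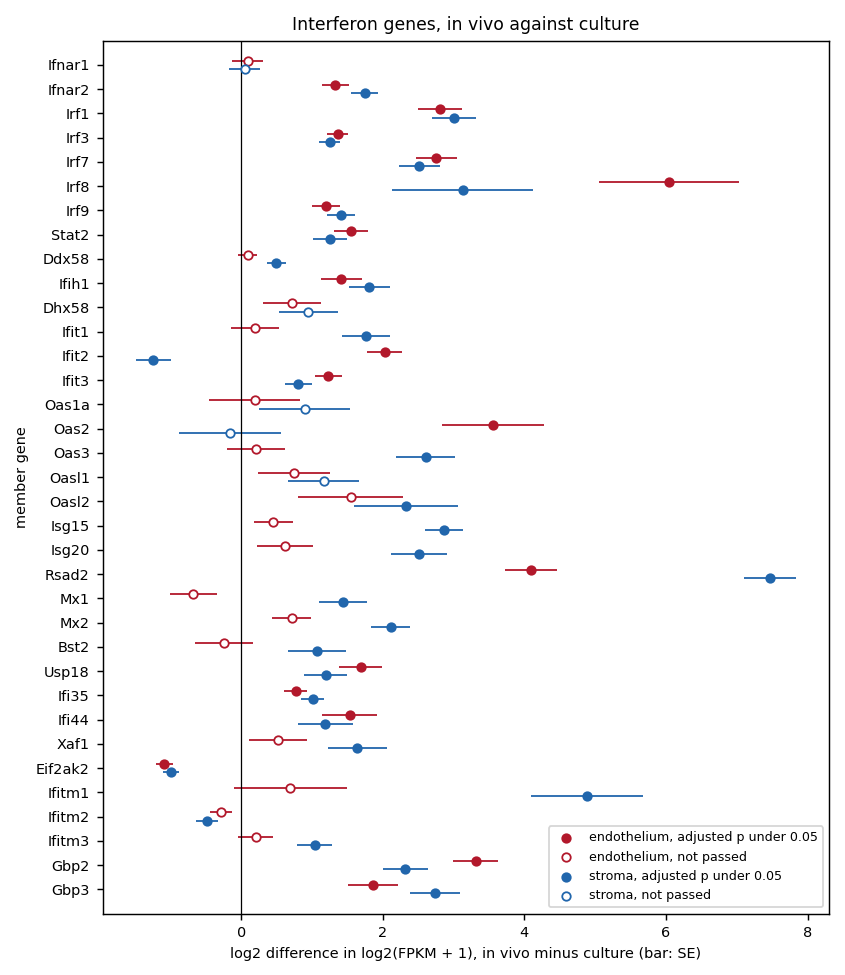
Log2 difference in log2(FPKM + 1) between in vivo and culture for each of the 35 genes in endothelium (red) and stroma (blue), with the SE as a bar; filled points passed an adjusted p of 0.05. Most points lie right of 0, Eif2ak2 lies left of it in both cell types, and Ifit2 lies on opposite sides.

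The difference between the 2 cell types in this contrast was tested as an interaction. It passed for 10 of the 35 genes. The difference of in vivo from culture was higher in endothelium than in stroma for 2 of them (16.4% of all genes) and lower for 8 (17.1% of all genes). The 2 were Ifit2 and Oas2, with differences of 3.27 ± 0.35 and 3.72 ± 1.02. The 8 were Ifitm1, Rsad2, Isg15, Oas3, Mx1, Isg20, Ifit1 and Mx2, from −4.19 for Ifitm1 to −1.40 for Mx2. The granulocyte and erythroid sum given above was higher in stroma in vivo than in endothelium in vivo, and its part in these differences was not tested. The calls of Ifit1 (8 of the 12 libraries, all but endothelium in vivo 1, endothelium in culture 2, stroma in culture 1 and stroma in vivo 3, adjusted p = 0.0558 to 0.0739), Isg20 (endothelium in vivo 2 or 3, stroma in culture 2 or any in vivo stroma, 0.0505 to 0.0598) and Mx2 (stroma in vivo 1 or 2, 0.0505 to 0.0571) were lost when 1 of the libraries named was left out. Leaving out the 3 libraries that carry Xist, a setting chosen after their values were seen, kept only replicate 1 of endothelium in culture, so no test result is given for it. The difference was then −3.78 for Ifitm1, −1.37 in place of −1.90 for Isg20, −2.10 in place of −2.40 for Oas3 and −0.90 for Mx2. With a pseudocount of 0.1, Oas2 and Oas3 did not pass (adjusted p = 0.142 and 0.0945).

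The second question was how the genes responded when HSPC were added to either cell type. In the fit of 12 libraries most genes fell in stroma, while fewer passed in endothelium, where most of those that did rose. With only the compared groups in the fit, 25 passed in endothelium (20 rose, 5 fell) and 23 in stroma (2 rose, 21 fell). Which cell type had more calls therefore depended on the fit. In stroma 25 of the 33 tested genes fell, 3 rose and 5 did not pass, against 35.4% lower and 25.6% higher among all 14017 tested genes. In endothelium 12 rose, 3 fell and 18 did not pass, against 28.3% and 20.3% of all genes, and 12 rose and 6 fell after quantile normalization. The median log2 difference of the 33 was −0.72 in stroma and 0.31 in endothelium, with −0.04 and 0.02 over all genes. Oas2 and Oas3 lay below the filter. Irf1, Irf9, Stat2, Ddx58, Dhx58, Oasl1 and Ifitm2 rose in endothelium and fell in stroma, and the share of all tested genes that did so is not given.

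Blood cell markers moved with the addition of HSPC. Pan-hematopoietic markers summed to 84.7 to 116 FPKM in endothelium with HSPC and 18.8 to 27.0 in stroma with HSPC, against 1.84 to 3.42 and 0 to 0.88 alone. The granulocyte and erythroid sum was 491 to 646 FPKM in endothelium with HSPC and 242 to 355 in stroma with HSPC, with Slc4a1 at 0 in both and Hba-a1 at 0 in stroma. Macrophage and dendritic markers summed to 312 to 333 FPKM in endothelium with HSPC against 186 to 205 alone, and to 8.19 to 8.92 in stroma with HSPC against 5.35 to 8 alone. Lymphoid markers summed to 40.4 to 59.3 FPKM in endothelium with HSPC and 10.3 to 14.5 in stroma with HSPC, against 0 to 0.91 and 0 to 1 alone, with Cd3e, Cd79a and Ms4a1 at 0 in both with HSPC. Spi1, a factor of blood cells, was at 12.6, 15.2 and 11.9 FPKM in endothelium with HSPC and 3.78, 2.42 and 3.17 in stroma with HSPC, and at 0 alone. The part of these markers' cells in the differences below was not tested. The stromal markers summed to 52640 to 59836 FPKM with HSPC, which overlapped stroma alone. Stroma alone 2 was the highest of its group in 24 of the 29 genes with distinct values, against 35% of all tested genes. In stroma with HSPC replicate 2 was highest in 25 of 29 (36.2% of all genes). Without stroma alone 2, 22 genes fell and 3 rose.

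In stroma the falls were largest among effectors. Ifit3, an adaptor of the IFIT complex, was at 56.3, 123 and 67.1 FPKM in stroma alone and 10.9, 14.7 and 7.90 with HSPC, a log2 difference of −2.73 ± 0.26 (SE, adjusted p = 3.4e-06). Ifit1 was at 17.4, 53.2 and 23.7 FPKM alone and 5.49, 6.08 and 4.56 with HSPC, a log2 difference of −2.20 ± 0.30 (SE, adjusted p = 6.5e-05). Gbp3 was at 17.5, 25.7 and 19.3 FPKM alone and 3.12, 5.97 and 2.92 with HSPC, a log2 difference of −2.16 ± 0.20 (SE, adjusted p = 3.4e-06). Gbp2, which ranked with it, was at 46.3, 48.3 and 45.2 FPKM alone and 10.6, 19.1 and 8.37 with HSPC, a log2 difference of −1.87 ± 0.21 (SE, adjusted p = 1.2e-05). Isg15 was at 24.7, 56.8 and 38.2 FPKM alone and 14.8, 15.3 and 10.2 with HSPC, a log2 difference of −1.45 ± 0.24 (SE, adjusted p = 0.00027). None of these 5 genes overlapped between the groups, and for all 5 the second library of stroma alone was the highest of its group. Oasl2, a ubiquitin-like OAS protein, fell by 1.84 on the log2 scale, Usp18 by 1.44, Mx1 by 1.24, Ifit2 by 1.17, Ifi35 by 0.82, Xaf1 by 0.72, Eif2ak2 by 0.60 and Bst2 by 0.52. Oasl1, at 0.680, 0.770 and 0.540 FPKM alone, was listed at 0 in all 3 stromal libraries with HSPC.

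The stromal sensors and regulators fell as well. Ddx58 was at 74.3, 87.6 and 77.0 FPKM alone and 34.3, 41.1 and 32.3 with HSPC, a log2 difference of −1.13 ± 0.08 (SE, adjusted p = 3.2e-07). Irf1 was at 83.0, 82.8 and 86.5 FPKM alone and 36.9, 50.0 and 36.0 with HSPC, a log2 difference of −1.04 ± 0.10 (SE, adjusted p = 3e-06). Irf7 fell by 1.11 on the log2 scale, Ifih1 by 0.79, Stat2 by 0.76, Dhx58 by 0.65 and Irf9 by 0.43. Ifnar1 fell by 0.21, from 96.5, 96.5 and 92.6 to 81.4, 84.1 and 81.7 FPKM, a small difference whose groups did not overlap. Ifnar2 did not pass, at 143, 166 and 174 FPKM alone and 149, 182 and 146 with HSPC. The falls of Irf3 (−0.12), Ifitm2 (−0.19) and Mx2 (−0.65) rested on single libraries and on the fit. All 3 were lost with only the compared groups in the fit (adjusted p = 0.0615, 0.0755 and 0.105), and Irf3 and Ifitm2 also under trimmed-mean scaling (0.0699 and 0.0589). Irf3 did not pass without stroma alone 2 (adjusted p = 0.0662), Ifitm2 without any 1 of stroma alone 2 or 3 or with HSPC 1 or 3 (0.0747 to 0.115), and Mx2 without any 1 of the same 4 (0.0616 to 0.149), with a difference of −0.33 without stroma alone 2. When all 24 libraries entered the fit, 9 stromal calls were lost, those of Bst2, Dhx58, Ifitm2, Ifnar1, Irf3, Irf8, Mx2, Oasl1 and Xaf1 (adjusted p = 0.0993 to 0.502).

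The 3 stromal rises were Isg20, Ifi44 and Irf8. Isg20 was at 11.01, 14.1 and 13.7 FPKM alone and 102, 119 and 122 with HSPC, a log2 difference of 3.05 ± 0.09 (SE, adjusted p = 4.8e-10), the largest of the 33 in either direction in stroma. Ifi44, an interferon-induced protein of the cytoplasm, was at 6.91, 13.8 and 9.69 FPKM alone and 24.7, 22.7 and 18.3 with HSPC, a log2 difference of 1.08 ± 0.20 (SE, adjusted p = 0.00064). Irf8 was listed at 0 in stroma alone and at 0.980, 0.980 and 0.930 FPKM with HSPC. The groups did not overlap for these 3 genes, and the blood marker S100a8, at 0 in stroma alone, stood at 295, 212 and 212 FPKM in the same libraries with HSPC. Calls were also counted for genes with and without the ISRE core in their window. In stroma with HSPC, 8 of 10 tested genes with the core and 13 of 19 without it fell (35.4% of all genes), with median log2 differences of −1.10 and −0.66. In endothelium with HSPC, 4 of 10 and 7 of 19 rose (28.3% of all genes), with medians of 0.19 and 0.31. In stroma in vivo, 9 of 11 and 15 of 19 rose (24% of all genes), with medians of 1.76 and 1.41. In endothelium in vivo, 5 of 11 and 10 of 19 rose (23.6% of all genes), with medians of 0.45 and 1.20, so the genes with the core had the larger median in stroma and the smaller one in endothelium. Oasl2, whose window holds no core, was among the stromal falls.

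**Figure D4:**
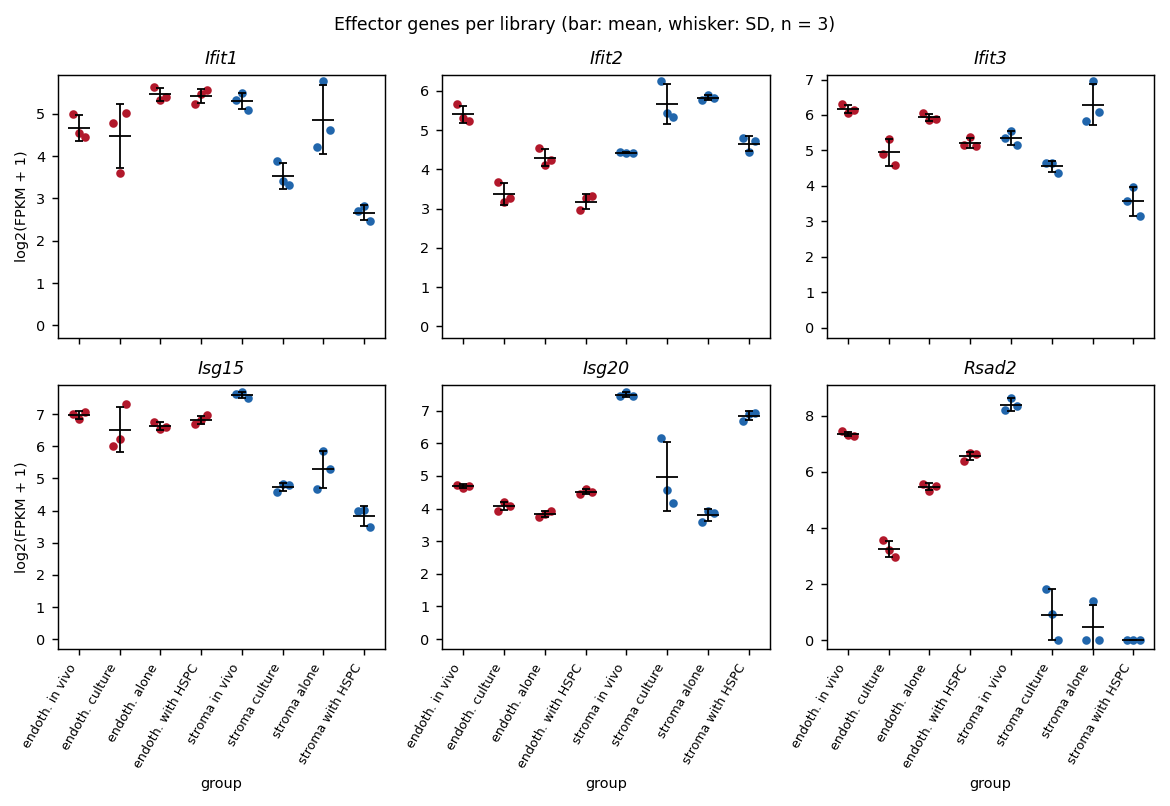
Per-library levels of effector genes, as log2(FPKM + 1), in the 8 groups, each point a library, with the mean as a bar and the SD as a whisker (n = 3). Isg20 reaches 102 to 122 FPKM in stroma with HSPC while Ifit1 lies at 4.56 to 6.08 FPKM there.

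In endothelium fewer genes passed with HSPC in the fit of 12 libraries, among them 2 sensors and 4 transcription factors that rose. Dhx58 was at 69.8, 64.2 and 65.8 FPKM alone and 161, 174 and 169.7 with HSPC, a log2 difference of 1.32 ± 0.17 (SE, adjusted p = 7e-05). Ddx58 rose from 164, 159 and 166 to 209, 206 and 212 FPKM, a log2 difference of 0.36 ± 0.08 (SE, adjusted p = 0.00330). Stat2 was at 80.8, 72.0 and 73.6 FPKM alone and 111, 121 and 119.9 with HSPC, a log2 difference of 0.63 ± 0.11 (SE, adjusted p = 0.00069). Groups did not overlap for these 3 genes. Irf8 was at 1.11, 0.910 and 1.54 FPKM alone and 5.89, 7.98 and 4.58 with HSPC, a log2 difference of 1.69 ± 0.16 (SE, adjusted p = 4.9e-06), beside the rise of Spi1 given above. The stromal groups, with SDs of 0 and 0.02 on the log2 scale for Irf8, also enter this SE. Irf1 rose by 0.33 ± 0.10 and Irf9 by 0.31 ± 0.09, the latter lost without endothelium alone 2 (adjusted p = 0.0590) or with HSPC 3 (0.0568). Irf7, at 40.7, 37.1 and 37.6 FPKM alone and 51.4, 57.4 and 65.4 with HSPC, did not overlap but did not pass the test (log2 difference 0.57 ± 0.24 (SE), adjusted p = 0.0649). Its SDs on the log2 scale were 0.07 and 0.17 in endothelium alone and with HSPC. In the stromal groups, which also enter this SE, they were 0.47 and 0.44.

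Of the endothelial effectors, Ifitm1 was at 1.68, 1.54 and 0 FPKM alone and 10.7, 13.4 and 8.45 with HSPC, a log2 difference of 2.62 ± 0.39 (SE, adjusted p = 0.00022). Rsad2 was at 46.5, 39.3 and 44.4 FPKM alone and 82.8, 101 and 97.2 with HSPC, a log2 difference of 1.09 ± 0.29 (SE, adjusted p = 0.00962). Oas1a was at 31.4, 26.1 and 25.9 FPKM alone and 45.4, 51.0 and 59.1 with HSPC, a log2 difference of 0.87 ± 0.10 (SE, adjusted p = 3.3e-05). It was listed at 0 throughout both stromal groups, which also enter this SE. All 3 genes were higher in every library with HSPC. Oasl1 rose by 0.70 ± 0.13, Isg20 by 0.68 ± 0.09 and Ifitm2 by 0.40 ± 0.07 on the log2 scale. The IFIT genes went down or did not pass. Ifit2 was at 22.3, 16.4 and 17.9 FPKM alone and 6.82, 8.61 and 8.93 with HSPC, a log2 difference of −1.12 ± 0.13 (SE, adjusted p = 2.4e-05). Ifit3 was at 65.2, 56.9 and 58.3 FPKM alone and 34.5, 40.6 and 33.8 with HSPC, but its difference of −0.71 ± 0.26 did not pass when any 1 of the 6 libraries was left out (adjusted p = 0.0547 to 0.104). Ifit1 and Isg15 overlapped between the groups. Ifnar1 fell by 0.17, from 132, 129 and 134 to 118, 115 and 118 FPKM. The count of endothelial calls depended on which libraries entered the fit, with 6 called when all 24 did and 25 when only the 2 groups compared did, against 15 here. With all 24 libraries 9 calls were lost, those of Irf1, Irf8, Irf9, Oas1a, Oasl1, Isg20, Rsad2, Ifnar1 and Ifit3 (adjusted p = 0.0522 to 0.63), and Rsad2 also did not pass with a pseudocount of 0.1 (0.33).

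**Figure D5:**
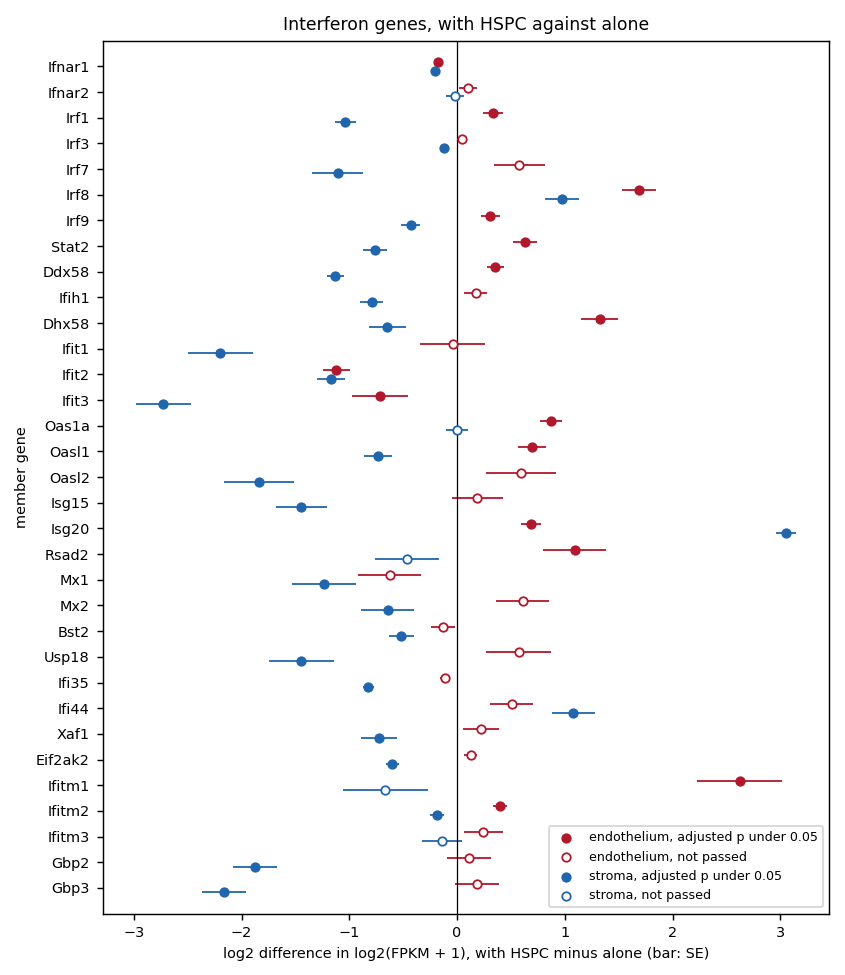
Log2 difference in log2(FPKM + 1) between cells with HSPC and alone for the 33 tested genes in endothelium (red) and stroma (blue), with the SE as a bar; filled points passed an adjusted p of 0.05. Stromal points lie mostly left of 0 and endothelial points mostly right of it, and Isg20 in stroma lies at 3.05.

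The interaction that sets the endothelial response against the stromal one passed for 26 of the 33 genes. It was higher in endothelium for 25 of them (36.0% of all tested genes) and lower for 1 (21.1% of all tested genes), Isg20, at −2.37 ± 0.13 (SE), adjusted p = 1.3e-07. The median of the 33 was 0.97 on the log2 scale, with 0.11 over all genes. The largest were Ifitm1 at 3.29 ± 0.56, Oasl2 at 2.43 ± 0.46, Gbp3 at 2.34 ± 0.29 and Ifit1 at 2.15 ± 0.42. Ifnar1, Ifnar2, Bst2, Ifit2, Ifitm3, Ifi44 and Mx1 did not pass this test. With all 24 libraries in the fit, 20 genes passed, and the calls of Oasl2, Oasl1, Xaf1, Oas1a, Irf3 and Irf8 were lost (adjusted p = 0.0644 to 0.747). Irf8, listed at 0 in stroma alone, was at 0.72 and turned to −1.14 with a pseudocount of 0.1. Irf3, at 0.17, did not pass under trimmed-mean scaling or quantile normalization (adjusted p = 0.17 and 0.0658), nor did Rsad2 with a pseudocount of 0.1 (0.109).

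The third question was how the genes differed between endothelium and stroma within a setting. Most of those that passed were higher in endothelium. In vivo 14 of the 35 were higher and 5 lower in endothelium, against 25.0% and 24.2% of all genes. In culture 14 were higher and 1, Ifit2, lower, against 20.1% and 18.6%. Alone, 21 of 33 were higher and 4 lower, against 42.0% and 41.3%. There the 6 macrophage and dendritic markers summed to 186 to 205 FPKM in endothelium and 5.35 to 8 in stroma, with Cx3cr1, Emr1, Mpeg1 and Siglech at 0 in both, and their part in the difference was not tested. The median log2 difference was 0.49, 0.89 and 0.59 in the 3 settings, with 0.03, 0.02 and 0.00 over all genes. Irf9, Ddx58, Bst2, Ifi35, Ifi44, Xaf1 and Eif2ak2 were higher in endothelium in all 3 settings. The share of all genes called the same way in all 3 is not given. The difference of Ifi44 in culture was 1.53 with the libraries that carry Xist and 0.37 without them. The latter setting kept only replicate 1 of endothelium in culture, so no test result is given for it. That replicate was the lowest of its group for Ifi44. Its low level and the loss of the Xist libraries therefore cannot be told apart here.

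Bst2 had the widest gap between the cell types among the genes higher in endothelium in all 3 settings. It was at 1033, 983 and 1117 FPKM in endothelium in vivo and 298, 259 and 261 in stroma in vivo, a log2 difference of 1.93 ± 0.41 (SE, adjusted p = 0.00276). In the co-culture series it was at 1858, 1943 and 1894 FPKM in endothelium alone and 118, 155 and 143 in stroma alone, a log2 difference of 3.78 ± 0.11 (SE, adjusted p = 2e-11). No stromal library of any setting reached the lowest endothelial one, which stood at 872 FPKM. Ddx58 was 1.31 ± 0.14 (SE) higher in endothelium in vivo, 1.72 ± 0.14 in culture and 1.03 ± 0.08 alone on the log2 scale. Xaf1 was 1.37 ± 0.41, 2.49 ± 0.41 and 2.52 ± 0.17 higher in the same order, the first lost without endothelium in vivo 1 (adjusted p = 0.0600) or stroma in vivo 3 (0.0614).

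Other genes passed the test between the cell types in 1 or 2 of the 3 settings. Irf8 was at 248, 238 and 287 FPKM in endothelium in vivo against 20.5, 19.6 and 12.4 in stroma in vivo, a log2 difference of 3.83 ± 0.99 (SE, adjusted p = 0.00842). Oas2 was higher in endothelium in vivo by 3.19 ± 0.72. Oas1a was at 31.4, 26.1 and 25.9 FPKM in endothelium alone and listed at 0 in all 6 stromal libraries of the co-culture series. Ifih1, Ifitm3, Mx1 and Mx2 were higher in endothelium in culture, with Ifih1 at 0.95, Ifitm3 at 0.89 and Mx2 at 1.69 on the log2 scale and Mx1 listed at 0 in all 3 stromal cultures. Isg15 and Gbp3 were higher there too, at 1.78 and 1.80. Ifih1 and Ifitm3 were also higher in endothelium alone, with log2 differences of 1.55 ± 0.11 (SE), adjusted p = 4.9e-08 and 1.67 ± 0.18 (SE), adjusted p = 4.1e-06. The call of Ifih1 was lost without stroma in culture 1 or 3 (adjusted p = 0.0510 and 0.0535) and its difference was 0.57 without endothelium in culture 3, that of Ifitm3 was lost without stroma in culture 2 or 3 (0.0577 and 0.0582), and that of Mx1 without any library but endothelium in culture 2 (0.0624 to 0.116). With only the compared groups in the fit, 10 genes were higher and 1 lower in endothelium in culture, in place of 14 and 1. Among the calls lost were those of Ifih1, Ifitm3 and Ifi44 (adjusted p = 0.139, 0.0927 and 0.0728). Mx2 alone was higher by 0.70, lost without endothelium alone 3, stroma alone 1 (0.43) or stroma alone 3 (adjusted p = 0.0559 to 0.0877).

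Lower in endothelium than in stroma in vivo were Ifitm1, Oas3, Isg20, Mx1 and Rsad2. Rsad2 went the other way in culture, with a log2 difference of 2.34 ± 0.37 (SE, adjusted p = 0.00071). It was also called higher in endothelium alone, at 46.5, 39.3 and 44.4 FPKM against 0, 1.63 and 0 in stroma alone. Isg20 was at 25.5, 23.7 and 25.0 FPKM in endothelium and 172, 190.2 and 173 in stroma, a log2 difference of −2.80 ± 0.40 (SE, adjusted p = 0.00018). Ifitm1 was at 4.04, 6.63 and 5.79 FPKM in endothelium and 59.9, 81.7 and 64.0 in stroma, a log2 difference of −3.43 ± 0.79 (SE, adjusted p = 0.00452). Neither gene overlapped between the cell types in vivo, and the granulocyte and erythroid sum given above was higher in the same stromal libraries, whose part in these levels was not tested. The calls of Rsad2 (−1.05, lost without any 1 of the 6 in vivo libraries, adjusted p = 0.0593 to 0.118), Mx1 (−1.12, endothelium 2 or 3 or stroma 1 or 2, 0.0702 to 0.0888), Gbp2 (0.97, any but endothelium 3, 0.0516 to 0.0834) and Ifitm2 (0.53, endothelium 3 or stroma 2, 0.0511 to 0.0699) were not kept when 1 of these libraries was left out. With a pseudocount of 0.1 the calls of Ifitm1, Irf8, Oas2 and Rsad2 in vivo were lost (adjusted p = 0.0669 to 0.374), and with quantile normalization those of Mx1 and Ifitm2 (0.243 and 0.0769). Alone, Ifitm1 (−2.53), Ifit2 (−1.53), Gbp2 (−0.79) and Ifnar2 (−0.42) were lower in endothelium.

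Other genes of the pathway were followed as lists of textbook symbols. Among the ligands, Ifnb1, Ifna4, Ifna2, Ifnk and Ifng were listed at 0 in every library. Of 39 further interferon targets, 31 rose and 1 fell in endothelium in vivo, and 30 rose and 2 fell in stroma in vivo, with medians of 2.06 and 1.62 on the log2 scale, against 23.6% higher and 29.8% lower of all genes in endothelium and 24% and 31.4% in stroma. Cxcl9, a chemokine induced by interferon gamma, was listed at 0 in the 3 endothelial cultures and at 180.0, 156 and 203 FPKM in endothelium in vivo. Cxcl10, a chemokine of the same family, was at 6.31, 2.21 and 0 FPKM in stroma in culture and 152, 201 and 115 in vivo, a log2 difference of 5.74 ± 0.64 (SE, adjusted p = 3.6e-05). Gbp5, another guanylate-binding protein, was at 1.90, 2.47 and 1.56 FPKM in endothelium in culture and 77.3, 54.2 and 49.6 in vivo, a log2 difference of 4.35 ± 0.31 (SE, adjusted p = 2.1e-06). The in vivo libraries of these 3 genes were all above the cultured ones.

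With HSPC, 29 of 38 tested further targets fell and 4 rose in stroma, and 11 rose and 3 fell in endothelium, with medians of −0.65 and 0.14. Over all genes 35.4% fell and 25.6% rose in stroma and 28.3% rose and 20.3% fell in endothelium, so the endothelial rises of these targets were near the share of all genes. Cxcl10 was at 27.7, 34.9 and 21.2 FPKM in stroma alone and 2.74, 6.13 and 5.52 with HSPC, a log2 difference of −2.35 ± 0.26 (SE, adjusted p = 1.4e-05). Of 11 tested signalling genes, 6 rose and 1 fell in stroma with HSPC, and 4 rose and 3 fell in endothelium. Socs3, a feedback inhibitor of cytokine receptors, was at 20.1, 20.0 and 20.2 FPKM in stroma alone and 104, 146 and 90.6 with HSPC, a log2 difference of 2.41 ± 0.16 (SE, adjusted p = 1.7e-07). Of 12 tested sensors and their adaptors, 7 rose and 0 fell in endothelium with HSPC, and 1 rose and 5 fell in stroma. In vivo, 9 of 12 signalling genes rose and 0 fell in endothelium, and 7 rose and 2 fell in stroma. Jak1, a kinase of both interferon receptors, was at 1173, 1219 and 1555 FPKM in endothelium in vivo and 239, 312 and 183 in culture, a log2 difference of 2.45 ± 0.21 (SE, adjusted p = 8.4e-06).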

How the data were processed

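PolyA RNA of 24 libraries was measured, and groups were taken from the titles. The authors deposited 1 FPKM value per gene symbol and library, made with TopHat and Cufflinks on mm9, per the submitters' processing notes. Versions, annotation and strandedness are not given in the sources used here. Depth is unknown, so error is taken from the differences among the 3 libraries in each group, pooled over the 4 groups of a fit. Library totals are higher than plain FPKM usually gives, and a further scaling is not stated.

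From these values log2(FPKM + 1) was computed and limma 3.58.1 (functions lmFit and eBayes, trend on; R 4.3.3) was run in 2 fits of 12 libraries, culture with in vivo and alone with HSPC. Genes at 1 FPKM or more in at least 3 libraries of a fit were tested, 14904 and 14017 genes, and 9 comparisons were drawn, of which 2 were interactions. Of the 35 genes, 35 and 33 passed this filter, and 0 had libraries at 1 FPKM or more in 1 group only. Oas3 would not have passed without stroma in vivo, nor Mx1 without stroma in vivo or endothelium in culture. In the HSPC fit the same held for Irf8 and endothelium with HSPC, and for Mx1 and stroma alone. These genes were then called higher in those groups, so such calls are not independent of the filter. Without a filter only the stromal in vivo call of Bst2 was lost. A gene was called at an adjusted p below 0.05 (Benjamini-Hochberg, with every tested gene in the adjustment). The procedure was tested on simulated data.

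The 35 genes and the other lists were chosen with earlier results of these data known. All 35 were to be named. Of each other list of the pathway, up to 4 called genes of largest difference per comparison could be named, with genes listed at 0 and blood markers beside them. Il28ra and Rnf213 were not found under those symbols, and Adgre1 was found as Emr1. Of the marker and pathway lists, 3 genes are not reported here and enter no sum or count. Same-numbered libraries of compared groups correlated at −0.12 to 0.16, so the numbers were not used to pair them. Alternatives were a pseudocount of 0.1, no filter or one at 5 FPKM, trimmed-mean scaling, quantile normalization, other sets of libraries in the fit, a replicate block, each library left out, and, added after seeing the data, no libraries with Xist. The last kept only replicate 1 of endothelium in culture. Figures were drawn with matplotlib 3.10.9 in Python 3.11.15.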

Additional observations from a re-analysis of the deposited data

Results flagged for a closer look

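Responses that differed between endothelium and stroma by the interaction test are collected here, on the log2(FPKM + 1) scale, as endothelium minus stroma. For the difference of in vivo from culture, 10 of the 35 genes did so. It was higher in endothelium for 2 and lower for 8, against 16.4% and 17.1% of all genes. The IFIT and OAS genes split, with Ifit2 at 3.27 and Oas2 at 3.72, and Ifit1 at −1.56 and Oas3 at −2.40. For the remaining effectors of the 10, the difference of in vivo from culture, not the level, was lower in endothelium than in stroma. Ifitm1 was at −4.19, Rsad2 at −3.38, Isg15 at −2.41, Mx1 at −2.11, Isg20 at −1.90 and Mx2 at −1.40.

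For the response to HSPC, 26 genes differed. Of the transcription factors, Irf7 was at 1.68, Stat2 at 1.39, Irf1 at 1.37, Irf9 at 0.74, Irf8 at 0.72 and Irf3 at 0.17. The sensors were Dhx58 at 1.97, Ddx58 at 1.49 and Ifih1 at 0.97. IFIT and OAS genes were Oasl2 at 2.43, Ifit1 at 2.15, Ifit3 at 2.01, Oasl1 at 1.43 and Oas1a at 0.87, the last listed at 0 in all 6 stromal libraries. Among other effectors, Ifitm1 was at 3.29, Gbp3 at 2.34, Usp18 at 2.01, Gbp2 at 1.98, Isg15 at 1.63, Rsad2 at 1.55, Mx2 at 1.25, Xaf1 at 0.94, Eif2ak2 at 0.73, Ifi35 at 0.71 and Ifitm2 at 0.59. Stromal Rsad2 was at 0, 1.63 and 0 FPKM alone and at 0 with HSPC. Stromal Oasl1 was at most 0.77 FPKM alone and at 0 with HSPC, so the stromal values of both genes lie near the floor. Isg20, at −2.37, was the 1 gene whose response to HSPC was lower in endothelium than in stroma.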

How the results depend on the processing

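The number of the 35 genes called moved by more than 1.5 times in 1 comparison, endothelium with HSPC against alone, from 15 to 6 with all 24 libraries in the fit and to 25 with only the compared groups. The cause was not tested. Leaving out each library gave 13 to 14 called genes there, 25 to 30 for stroma with HSPC, 26 to 28 for the HSPC interaction, 18 to 21 for endothelium and 25 to 29 for stroma in vivo against culture, and 7 to 14 for their interaction. For endothelium against stroma it gave 15 to 16 in vivo, 13 to 18 in culture and 24 to 27 alone. Irf8 in the HSPC interaction turned from 0.72 to −1.14 with a pseudocount of 0.1, which weights values near 0. With the replicate block, which rests on numbers that do not pair the libraries, 14 genes rose and 3 fell in endothelium with HSPC, and 26 rose and 3 fell in stroma in vivo; the other counts were those of the fit without it. Trimmed-mean scaling moved the median of all genes in stroma in vivo from −0.15 to 0.06, and the share of calls that were higher from 43.3% to 57.4% there and from 44.2% to 54.5% in endothelium in vivo. Quantile normalization moved that share from 58.2% to 45.4% in endothelium with HSPC. A gene that passed neither in the fit reported nor in an alternative was counted as kept whatever its sign. Depth is unknown, and values near 0 FPKM are the least certain.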
